A study of Mus musculus with 11 samples.

Results

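The SOX transcription factors were followed across 11 mouse expression arrays of epiblast stem cells (EpiSCs), pluripotent cells that resemble the postimplantation epiblast. Members were all probes whose gene symbol is Sox followed by a number, which gave 15 probes of 9 genes among 15718 probes and 9201 named genes. These were Sox2, Sox4, Sox5, Sox9, Sox11, Sox12, Sox13, Sox17 and Sox21. Other SOX genes, Sox1, Sox3 and Sox10 among them, had no probe annotated to them alone among the 15718 and could not be analysed. All cells were EpiSCs of strain 129xMF1 kept in N2B27 medium with Activin and Fgf. The 4 groups were GY118F EpiSCs after 3 hours with G-CSF (n = 2), GY118F EpiSCs without it (n = 3), control EpiSCs after 3 hours with G-CSF (n = 3) and control EpiSCs without it (n = 3). GY118F is a transgene for a receptor that binds G-CSF outside the cell and carries the gp130 tail inside it, with the Shp2-binding tyrosine of gp130 exchanged for phenylalanine, so that G-CSF activates STAT3. The labels give the controls no transgene, describe no culture treated with vehicle, and do not say whether GY118F EpiSCs are a single clone. They also do not say that replicates were cultured separately, and the p-values measure only how these arrays spread, part of which may be technical.

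SOX proteins bind DNA through an HMG box, a domain that bends the helix, and act with partner factors. SOX2 pairs with OCT4 (Pou5f1) in pluripotent cells and keeps neural progenitors undifferentiated, whereas the related repressor SOX21 promotes their differentiation. SOX9 directs cartilage, neural crest and gonad development, and SOX4, SOX11 and SOX12 form a group that acts in neurons and mesenchyme. SOX5 and SOX13 lack a transactivation domain, and SOX17 specifies endoderm.

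Expression is given in log2-like units, which ran from 7.11 to 15.22 around a median of 8.16, and differences in these units are called log2 changes. They had been quantile-normalized, so the arrays share 1 distribution of values, and the number of arrays limits the precision. A call is a limma Benjamini-Hochberg adjusted p under 0.05 over all 11208 features tested. Socs3, the feedback inhibitor that STAT3 induces, had a log2 change after G-CSF of 3.00 in GY118F EpiSCs and of -0.17 in control EpiSCs. Of 9 EpiSC markers 7 were measured, and none of these stayed under 7.66, the 25th percentile of all values, on every array. The mean level of the 7 was 9.73 to 9.76 in stimulated GY118F, 9.51 to 9.60 in unstimulated GY118F, 10.32 to 10.44 in stimulated control and 10.17 to 10.28 in unstimulated control EpiSCs. The lines also differed in sex-chromosome transcripts, which were chosen after their values were seen. Xist, the RNA that silences an X chromosome, was at 7.17 ± 0.02 in unstimulated GY118F and 9.53 ± 0.17 in unstimulated control EpiSCs (SD, n = 3 each), and the Y-linked translation factor Eif2s3y was at 8.88 ± 0.25 and 7.20 ± 0.05 in the same groups. The Y-linked Uty, under 7.66 on every array, had a difference of 0.11 between these groups with no call (limma adjusted p = 0.1598). The part of the sex-chromosome differences in any result that sets GY118F against control EpiSCs was not tested.

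The SOX genes covered much of the array's range. By its brightest probe, Sox11 stood at the 95.4th percentile of probe means, Sox12 at 89.9, Sox9 at 84.4, Sox21 at 68.8, Sox4 at 63.4, Sox2 at 63.2 and Sox13 at 46.8. Sox5 (0.8th percentile) and Sox17 (1.6th percentile) stayed under 7.66 on all 11 arrays, so the values of these 2 genes lie where dim probes of any gene lie. Brightness depends on the probe, so this order is not an order of transcript amounts.

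**Figure D1:**
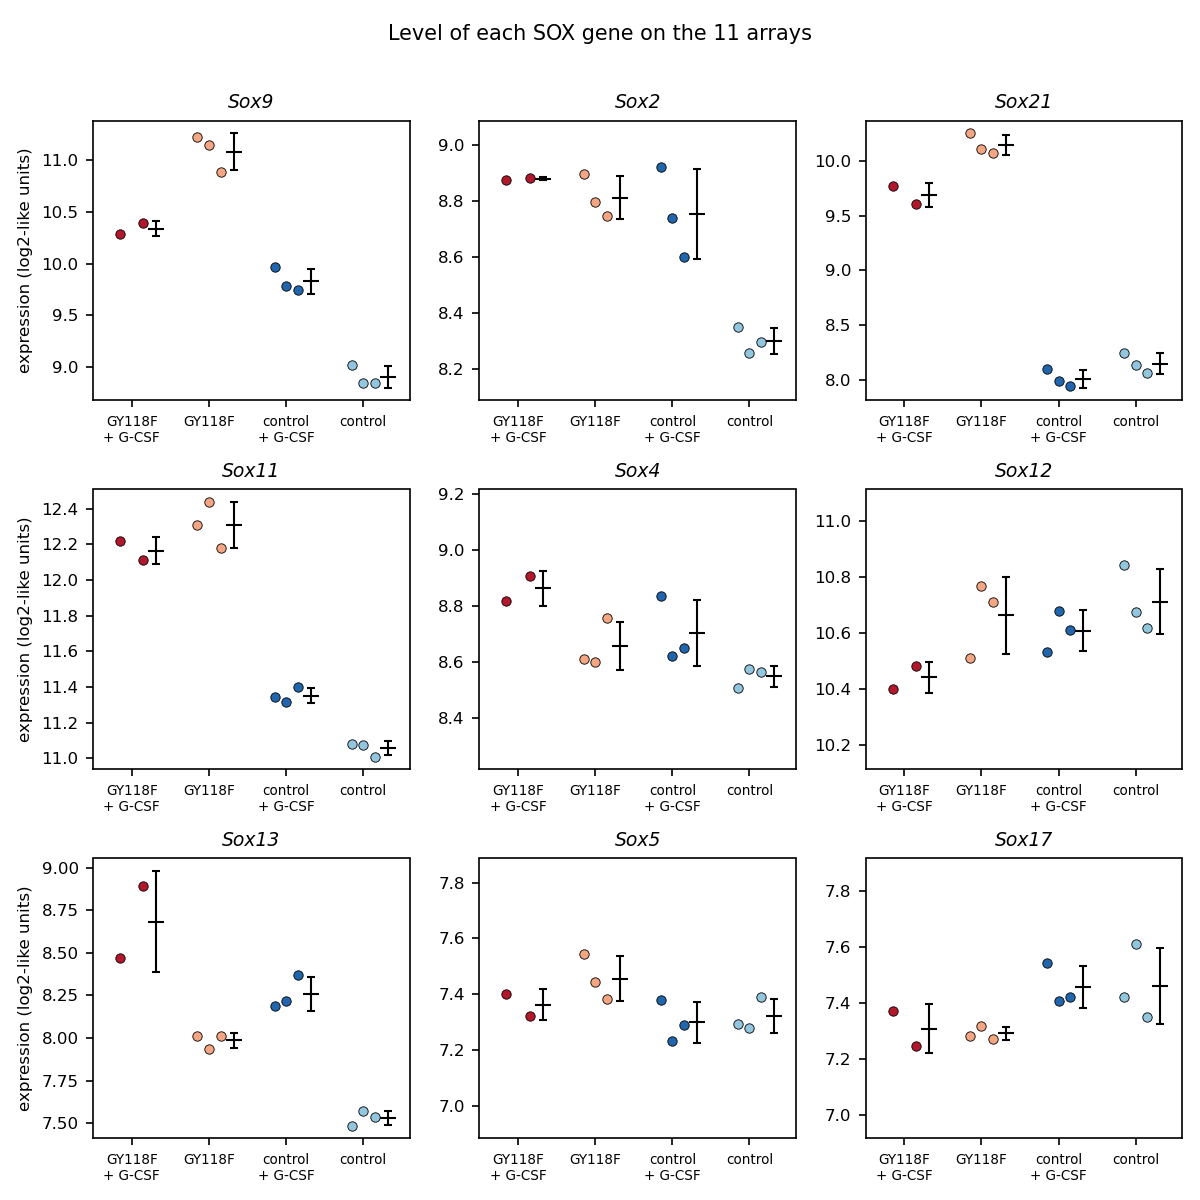
Expression (log2-like units, y axis, with a different range in each panel) of the 9 SOX genes in the 4 groups (x axis); each point is an array, and the bar beside the points is the mean with its SD (n = 2 for GY118F with G-CSF, 3 for the others). Sox9, Sox21 and Sox11 were higher on every GY118F array than on every control array, and Sox5 and Sox17 stayed between 7.23 and 7.61. The share of all features whose groups separate like this was not counted, here or for the ranges in the text.

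After G-CSF, 4 of the 9 SOX genes were called in GY118F EpiSCs, against 39.8% of all features: 2 rose (Sox13 and Sox4), against 17.8%, and 2 fell (Sox9 and Sox21), against 21.9%. In control EpiSCs 4 were called, against 42.1% of all features: 4 rose (Sox9, Sox13, Sox2 and Sox11), against 19.5%, and 0 fell, against 22.6%. At an unadjusted limma p under 0.05, Sox4 also counted among the rises in control EpiSCs and there was still no fall. All these counts use the brightest probe of each gene and depend on that choice. A dimmer Sox12 probe fell in both lines, by 0.46 in control EpiSCs, and a dimmer Sox11 probe rose by 0.35 in GY118F EpiSCs. The change after G-CSF differed between the lines for 2 genes, against 6% of all features. These were Sox9 and Sox11, both with a lower change in GY118F EpiSCs, against 2.14%, and there were 0 in the other direction, also at an unadjusted limma p under 0.05, against 3.85%. Median log2 changes over the 9 genes were -0.09 in GY118F and 0.15 in control EpiSCs, and -0.12 for the difference, where the medians of all features were -0.01, 0.00 and -0.01. Both G-CSF comparisons enter the difference, so these counts share arrays.

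Sox9 was the SOX gene with called changes after G-CSF in opposite directions in the 2 lines. In GY118F EpiSCs it was at 10.29 and 10.39 with G-CSF and at 11.22, 11.15 and 10.88 without. In control EpiSCs it was at 9.96, 9.78 and 9.74 with G-CSF and at 9.02, 8.84 and 8.85 without. The arrays of the 4 groups formed separate ranges, highest in unstimulated GY118F, then stimulated GY118F, then stimulated control, and lowest in unstimulated control EpiSCs, so the lines lay closer together with G-CSF than without it. Sox9 fell by 0.75 ± 0.10 (SE) on the log2 scale in GY118F EpiSCs (limma adjusted p = 7.475e-05) and rose by 0.92 ± 0.09 (SE) in control EpiSCs (limma adjusted p = 4.464e-06). The difference between these changes was -1.67 ± 0.13 (SE; limma adjusted p = 9.716e-06), and 1 feature of 11208 had a more negative one. Without each array in turn it stayed between -1.77 and -1.60.

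**Figure D2:**
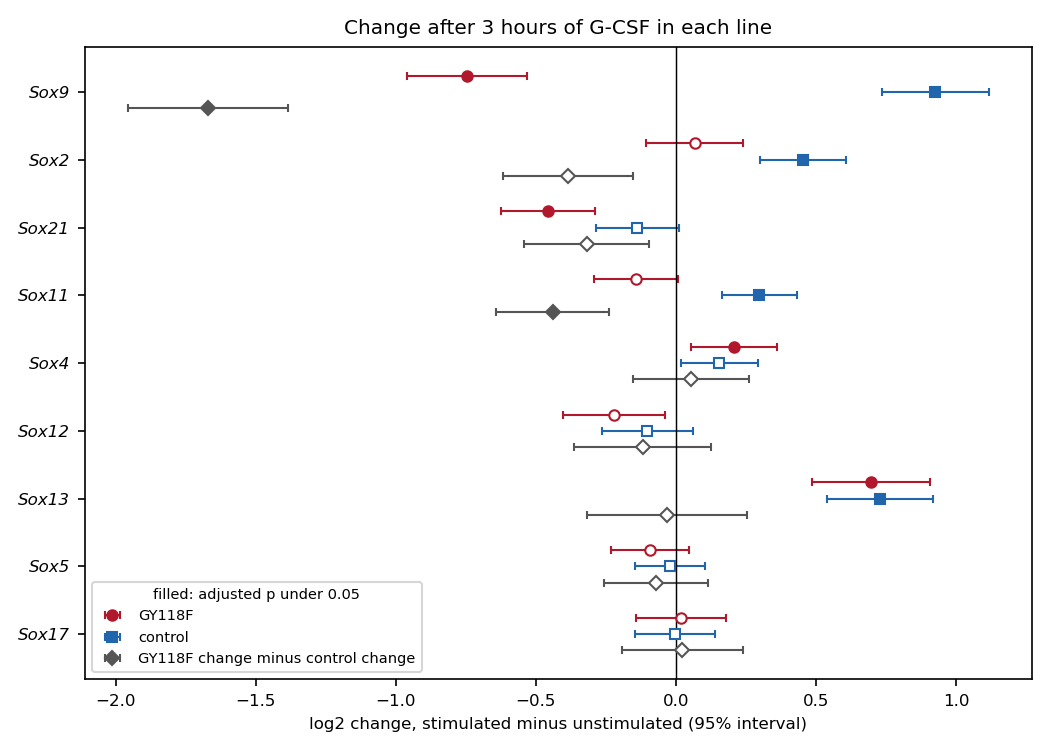
Log2 change after 3 hours of G-CSF (x axis, stimulated minus unstimulated) of the 9 SOX genes (y axis) in GY118F EpiSCs (circles), in control EpiSCs (squares) and the difference between these (diamonds); bars are 95% intervals and filled symbols have a limma adjusted p under 0.05. Sox9 lies at -0.75 in GY118F and 0.92 in control EpiSCs, and Sox13 at 0.70 and 0.73.

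Sox2, the partner of OCT4, did not show a called change in GY118F EpiSCs. Its values were 8.88 and 8.88 with G-CSF and 8.90, 8.79 and 8.75 without, and the log2 change was 0.07 ± 0.08 (SE; 95% interval -0.11 to 0.24; limma adjusted p = 0.5499). In control EpiSCs Sox2 was at 8.92, 8.74 and 8.60 with G-CSF and at 8.35, 8.26 and 8.30 without. These ranges do not overlap, and Sox2 rose by 0.45 ± 0.07 (SE; limma adjusted p = 0.0002433). The low group was unstimulated control EpiSCs; the other 3 groups overlapped one another. The difference of the changes, -0.39 ± 0.11 (SE), was not called (limma adjusted p = 0.05375). It was called, at -0.42, without unstimulated GY118F replicate 3 (limma adjusted p = 0.0408) and, at -0.46, without stimulated control replicate 3 (limma adjusted p = 0.01435).

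Sox21, a repressor related to SOX2, differed more between the lines than after G-CSF. It was at 9.77 and 9.61 in GY118F EpiSCs with G-CSF and at 10.25, 10.11 and 10.07 without. Control EpiSCs had 8.10, 7.99 and 7.94 with G-CSF and 8.25, 8.14 and 8.06 without. The GY118F groups were apart from each other and from the controls, and the control groups overlapped. Sox21 fell by 0.46 ± 0.08 (SE) in GY118F EpiSCs (limma adjusted p = 0.0004842), and its log2 change in control EpiSCs was -0.14 ± 0.07 (SE; 95% interval -0.29 to 0.01; limma adjusted p = 0.1297). The difference of these changes was -0.32 ± 0.10 (SE) and was not called (limma adjusted p = 0.1021).

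Sox11, the brightest SOX gene and a factor of neuronal differentiation, was at 12.22 and 12.11 in GY118F EpiSCs with G-CSF and at 12.31, 12.44 and 12.18 without. In control EpiSCs it was at 11.34, 11.32 and 11.40 with G-CSF and at 11.08, 11.08 and 11.01 without. The GY118F groups overlapped, and the control groups did not. Sox11 rose by 0.30 ± 0.06 (SE) in control EpiSCs (limma adjusted p = 0.001861) and changed by -0.14 ± 0.07 (SE) in GY118F EpiSCs, with no call (limma adjusted p = 0.1196). Without unstimulated GY118F replicate 3 that change was -0.21 and was called (limma adjusted p = 0.02028). The difference of the changes was -0.44 ± 0.09 (SE; limma adjusted p = 0.01328), and without stimulated GY118F replicate 3 it was -0.39 and not called (limma adjusted p = 0.06296).

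Sox13, which encodes a SOX protein without a transactivation domain, rose in both lines. It was at 8.47 and 8.89 in GY118F EpiSCs with G-CSF and at 8.01, 7.94 and 8.01 without, and at 8.19, 8.22 and 8.37 in control EpiSCs with G-CSF and 7.49, 7.57 and 7.54 without. All 4 groups had separate ranges, and the 3 lowest arrays, those of unstimulated control EpiSCs, were under 7.66. The rise was 0.70 ± 0.10 (SE; limma adjusted p = 0.0001189) in GY118F and 0.73 ± 0.09 (SE; limma adjusted p = 2.874e-05) in control EpiSCs. Because the values of unstimulated control EpiSCs lie where dim probes lie, no fold is given. The difference between the rises was -0.03 with no call (limma adjusted p = 0.9521), and with values under 7.66 set to 7.66 the rise in control EpiSCs was 0.59 and the difference 0.10. The stimulated GY118F arrays had an SD of 0.30, against 0.04 to 0.10 in the other groups, and the rise was 0.49 without replicate 3 and 0.91 without replicate 2, called either way.

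Sox4 and Sox12, which belong to the same group of SOX factors as Sox11, had small changes by their brightest probes, and a dimmer Sox12 probe described with the other probes had larger ones. Sox4 was at 8.82 and 8.91 in GY118F EpiSCs with G-CSF and at 8.61, 8.60 and 8.76 without, and at 8.84, 8.62 and 8.65 in control EpiSCs with G-CSF and 8.51, 8.58 and 8.57 without. It rose by 0.21 ± 0.07 (SE) in GY118F EpiSCs (limma adjusted p = 0.03456), and its log2 change of 0.15 ± 0.06 (SE) in control EpiSCs was not called (limma adjusted p = 0.06986). The rise in GY118F EpiSCs lost its call without any of 4 arrays: it was 0.19 without unstimulated GY118F replicate 1 (limma adjusted p = 0.0953), 0.18 without replicate 2 (0.1057), 0.25 without stimulated GY118F replicate 2 (0.05207) and 0.16 without replicate 3 (0.2032). In control EpiSCs the change was 0.19 and called without stimulated control replicate 2 (limma adjusted p = 0.04711). Sox12 lay between 10.40 and 10.84 on all arrays, lowest in stimulated GY118F EpiSCs, where both arrays were under every other array. Its log2 change was -0.22 ± 0.08 (SE) in GY118F (limma adjusted p = 0.05155) and -0.10 ± 0.07 (SE) in control EpiSCs (limma adjusted p = 0.2998). The first was called without unstimulated GY118F replicate 1 (-0.30, limma adjusted p = 0.01104) or unstimulated control replicate 1 (-0.22, limma adjusted p = 0.04). Sox5 and Sox17, the dim genes, had log2 changes after G-CSF between -0.09 and 0.02 in the 2 lines and no call.

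Without G-CSF, 5 of the 9 SOX genes were higher in GY118F than in control EpiSCs, against 16.7% of all features, and 0 were lower, against 16.5%, with 33.2% called in either direction; Sox17 had an unadjusted limma p of 0.02433 for a lower level. With G-CSF, 4 were higher, against 15.6% of all features, and 0 lower, against 14.4%, with 29.9% called in either direction, and at an unadjusted limma p under 0.05 there was still none lower. Median differences over the 9 genes were 0.46 without G-CSF and 0.16 with it, where all features had 0.00 and -0.01. The unstimulated arrays that set the first of these comparisons are also the baseline of the G-CSF changes above. Sox9 was higher in GY118F EpiSCs by 2.18 ± 0.09 (SE) without G-CSF, which is 4.53-fold (limma adjusted p = 1.72e-09), and with G-CSF by 0.51 ± 0.10 (SE), which is 1.42-fold (limma adjusted p = 0.001652). Sox21 was higher by 2.00 ± 0.07 (SE) without G-CSF (limma adjusted p = 4.255e-10), and by 1.68 ± 0.08 (SE) with it, or 3.20-fold (limma adjusted p = 9.588e-09). The folds given for Sox9 and Sox21 hold only if the deposited values are plain log2, which the sources do not state. Among 11208 features, Sox9 ranked 8th and Sox21 ranked 11th by the size of a positive difference without G-CSF.

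Sox11 was higher in GY118F than in control EpiSCs by 1.25 ± 0.06 (SE) without G-CSF (limma adjusted p = 1.049e-08) and by 0.81 ± 0.07 (SE) with it (limma adjusted p = 2.213e-06). Sox2 was higher by 0.51 ± 0.07 (SE) without G-CSF (limma adjusted p = 0.0001134), and with G-CSF the difference was 0.13 ± 0.08 (SE; 95% interval -0.05 to 0.30; limma adjusted p = 0.2782). Without stimulated control replicate 1 the second value was 0.21 and called (limma adjusted p = 0.03678). Sox13 was higher by 0.46 ± 0.09 (SE) without G-CSF (limma adjusted p = 0.001331), where the control arrays were under 7.66, and by 0.42 ± 0.10 (SE) with it (limma adjusted p = 0.005313), and the second was 0.21 and not called without stimulated GY118F replicate 3 (limma adjusted p = 0.06843). Sox4, Sox5, Sox12 and Sox17 had differences between -0.17 and 0.16 in both comparisons and no call. Single arrays decided 2 of these: without stimulated control replicate 1 the Sox4 difference with G-CSF was 0.23 (limma adjusted p = 0.02136), and without unstimulated control replicate 3 the Sox17 difference without G-CSF was -0.23 (limma adjusted p = 0.02872).

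**Figure D3:**
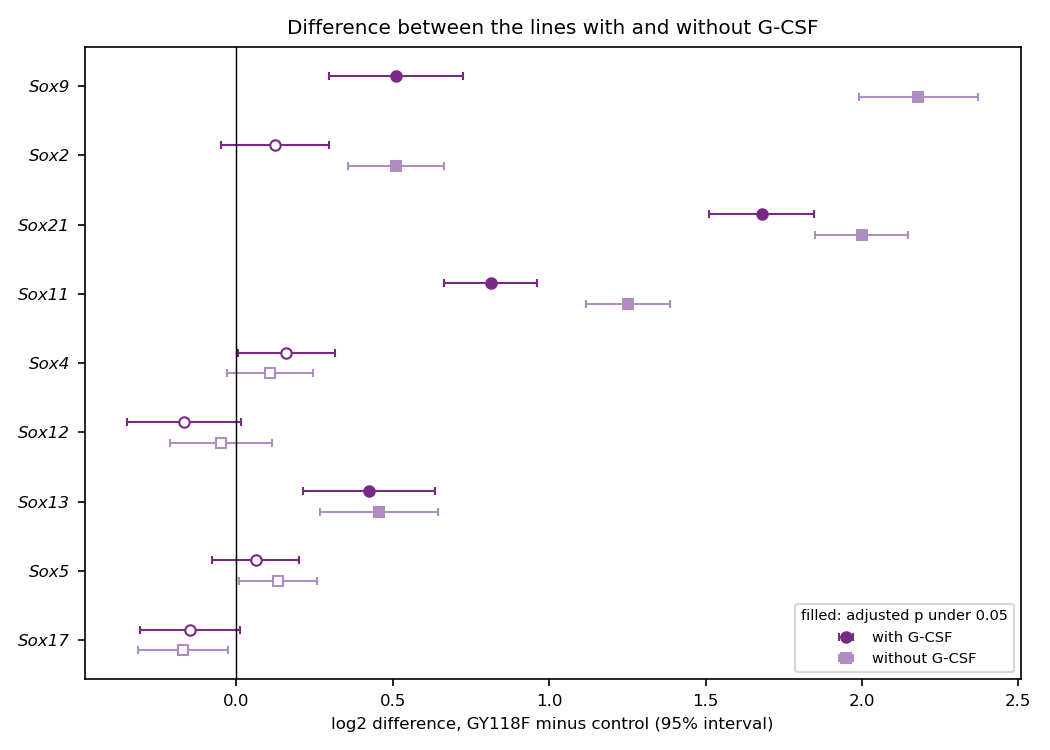
Log2 difference of GY118F minus control EpiSCs (x axis) for the 9 SOX genes (y axis), with G-CSF (circles) and without (squares); bars are 95% intervals and filled symbols have a limma adjusted p under 0.05. The Sox9 difference is 0.51 with and 2.18 without G-CSF, whereas those of Sox21 are 1.68 and 2.00.

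Markers of the other cell types that a culture of EpiSCs could hold were read beside these differences, and their part in them was not tested. The mean level of 3 measured neural progenitor markers of 9 was 7.98 to 8.13 in unstimulated GY118F and 7.82 to 7.88 in unstimulated control EpiSCs, with 2 higher and 0 lower, and Hes5 was under 7.66 on all arrays. Over all features 16.7% were higher and 16.5% lower in this comparison. The mean of 3 neural crest markers of 7 was 7.85 to 7.93 and 7.55 to 7.62 in the same groups, with 2 higher and 1 lower, and that of 2 chondrocyte markers of 7 was 7.67 to 8.08 and 7.46 to 7.57, with 1 higher and 1 lower. For 6 of 10 endoderm markers it was 7.53 to 7.58 and 7.72 to 7.86, with 0 higher and 3 lower, and Sox17 and Cxcr4 were under 7.66 on all arrays. The 4 of 8 mesoderm markers had 7.48 to 7.54 and 7.55 to 7.60, with 1 higher and 2 lower, the 5 of 8 trophoblast markers 8.21 to 8.28 and 8.12 to 8.16, with 2 each, and the 4 of 10 fibroblast markers 8.47 to 8.48 and 8.54 to 8.60, with 2 each. The chondrocyte marker Comp, the fibroblast marker Pdgfra and the trophoblast marker Krt7 were also under 7.66 on all arrays. Comp and Pdgfra counted among the lower genes. In RNA of whole cultures, a change in the number of cells of a type and a change in the RNA per cell cannot be told apart.

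The sequence just before the transcription start is shown for Sox21, Sox11 and Sox2, 3 of the 5 SOX genes higher in unstimulated GY118F EpiSCs. The others were Sox9, for which no such window was available, and Sox13, which is not shown. Each line holds the 250 bases before the start, from RefSeq on GRCm38.p6, read 5′ to 3′ on the gene's own strand. They lie at chr14:118237031-118237280 on the minus strand for Sox21, at chr12:27342719-27342968 on the minus strand for Sox11 and at chr3:34649745-34649994 on the plus strand for Sox2. Capitals mark a match to the SOX motif ACAAAG.
Sox21: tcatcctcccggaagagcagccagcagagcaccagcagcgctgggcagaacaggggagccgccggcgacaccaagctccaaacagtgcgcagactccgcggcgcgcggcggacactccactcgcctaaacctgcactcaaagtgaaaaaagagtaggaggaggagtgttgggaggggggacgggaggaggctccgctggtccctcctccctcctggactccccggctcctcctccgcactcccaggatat
Sox11: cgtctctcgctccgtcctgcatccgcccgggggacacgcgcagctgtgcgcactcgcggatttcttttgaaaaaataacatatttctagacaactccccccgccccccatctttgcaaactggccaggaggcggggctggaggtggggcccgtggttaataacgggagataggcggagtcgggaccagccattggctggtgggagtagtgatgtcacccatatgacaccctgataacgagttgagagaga
Sox2: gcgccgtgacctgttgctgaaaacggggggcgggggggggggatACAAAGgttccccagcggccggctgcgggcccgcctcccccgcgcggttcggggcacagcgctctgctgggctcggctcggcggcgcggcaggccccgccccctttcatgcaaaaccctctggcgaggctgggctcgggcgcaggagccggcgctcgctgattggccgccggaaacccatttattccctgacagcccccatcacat
All 3 are rich in G and C, at 65.2% for Sox21, 58.0% for Sox11 and 72.0% for Sox2, where the median of 32851 such windows was 52.4%. Searched on both strands, the STAT motif TTCNNNGAA was in none of the 3 and in 7.02% of all windows, the SOX motif ACAAAG was in that of Sox2, 206 bases before the start, and in 16.46% of all windows, and the SOX motif ACAATG was in none of the 3 and in 10.69% of all windows. Among the 7 SOX genes with such a window, that of Sox13 held TTCNNNGAA, 212 bases before the start, and that of Sox5 held ACAATG, 154 bases before it. These are matches of letters and no evidence of binding.

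For 5 of the 9 SOX genes more than 1 probe was measured, and the brightest one gave the values above. The dimmer Sox9 probe, with a mean of 7.69, moved the same way on a smaller scale: -0.28 in GY118F EpiSCs (limma adjusted p = 0.002447), 0.19 in control EpiSCs (limma adjusted p = 0.01169) and -0.47 for their difference (limma adjusted p = 0.003717), here adjusted over all probes. This probe was under 7.66 on every control array, with and without G-CSF, so its rise there lies where dim probes of any gene lie. The probes of Sox11 disagreed in GY118F EpiSCs, where the dimmer one, with a mean of 9.85, rose by 0.35 ± 0.05 (SE; limma adjusted p = 0.0002387) while the brighter one changed by -0.14. In control EpiSCs both Sox11 probes rose, the dimmer by 0.69, and the difference between lines was negative for both, at -0.34 for the dimmer (limma adjusted p = 0.01582). One of the dimmer Sox12 probes, with a mean of 8.17, fell by 0.58 in GY118F EpiSCs (limma adjusted p = 9.34e-06) and by 0.46 in control EpiSCs (limma adjusted p = 2.07e-05), where the brightest Sox12 probe had no call; the other, with a mean of 7.52, changed by -0.02 and 0.02. The second Sox2 probe, with a mean of 7.35, had no call in any comparison. The second Sox21 probe, with a mean of 7.47, was higher in GY118F than in control EpiSCs by 0.32 with G-CSF and by 0.41 without it and had no call after G-CSF. Which transcripts each probe of a gene reads was not analysed here.

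**Figure D4:**
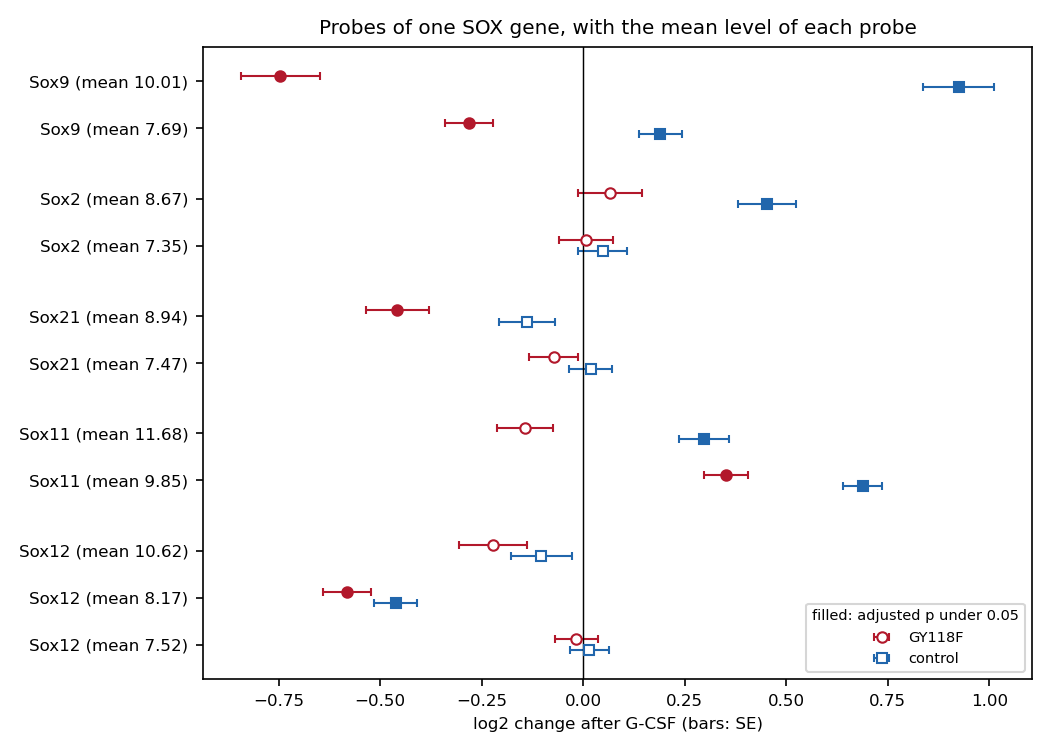
Log2 change after G-CSF (x axis) for each probe of the 5 SOX genes with more than 1 probe (y axis, with the mean level of the probe), in GY118F (circles) and control EpiSCs (squares); bars are SE and filled symbols have a limma adjusted p under 0.05 over all probes. Both Sox9 probes are negative in GY118F and positive in control EpiSCs, whereas the Sox11 probes lie on opposite sides of 0 in GY118F EpiSCs, at 0.35 and -0.14. The dimmer Sox9 probe was under 7.66 on every control array.

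Genes with the profile most like a SOX gene were found by Pearson correlation over the 11 arrays. These arrays fall into the same 4 groups for every gene, so r describes a shared order of groups and has no p. For Sox9 the 5 most alike were Rtl8a (r = 0.988), Irx3 (0.986), Fzd7 (0.979), Eras (0.973) and Pigx (0.969), and the most opposed were Tafa4 (-0.983), Parm1 (-0.975) and Isg15 (-0.974). Of these, Irx3, a homeobox factor of the neural plate, was at 8.56 ± 0.12 (SD, n = 2) with and 9.24 ± 0.31 (SD, n = 3) without G-CSF in GY118F EpiSCs, and at 8.20 ± 0.06 and 7.58 ± 0.02 (SD, n = 3 each) in control EpiSCs. Its unstimulated control arrays were all under 7.66. Because these genes were chosen for a profile like that of Sox9 on the same arrays, their changes are a description and have no test here. For Sox21 the most alike were Kdm1a (r = 0.996), Gdnf (0.995), the Y-linked demethylase Kdm5d (0.995), Zfp277 (0.994) and Cbwd1 (0.993), and the most opposed were Bach1 (-0.995), Psmb8 (-0.994) and Otx2 (-0.994). Kdm5d differed between the lines by 0.66 without G-CSF, so a profile like that of Sox21 is also found in a gene of the Y chromosome. Sox11 was closest to Ddah1 (r = 0.995), Sox2 to Lrig1 (0.982) and Sox13 to Mier3 (0.981), and Sox13 was most opposed to Trit1 (-0.992).

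**Figure D5:**
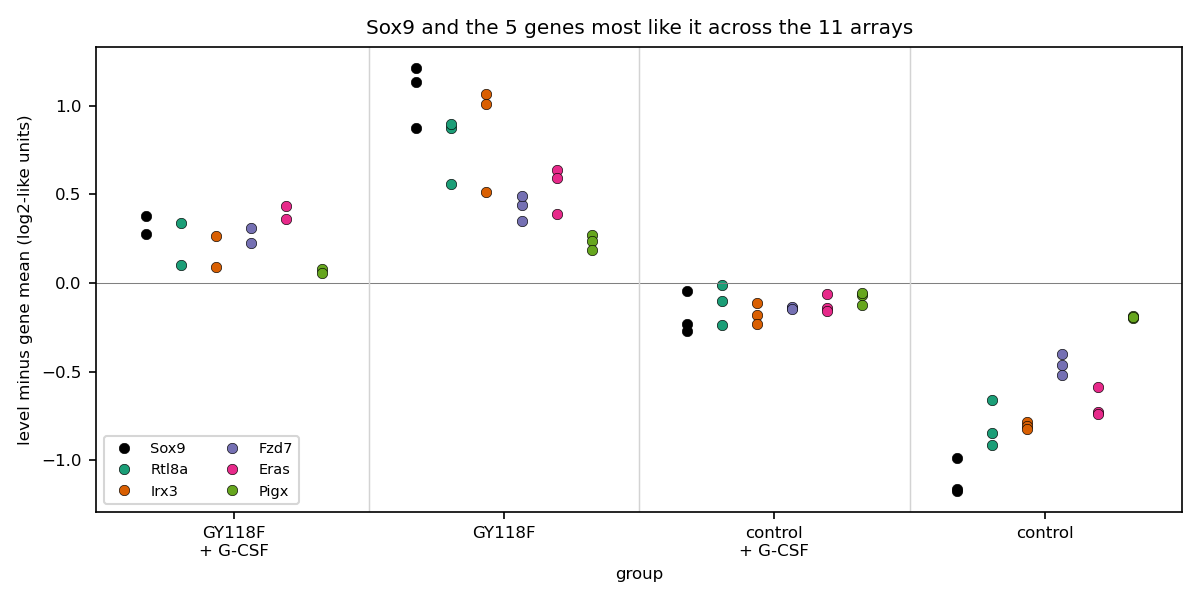
Level of Sox9 and of the 5 genes most like it on each of the 11 arrays (y axis, log2-like units minus the gene's own mean), by group (x axis); each point is an array. All 6 genes are highest in unstimulated GY118F and lowest in unstimulated control EpiSCs, with the stimulated groups between, and the order is that by which they were chosen.

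Genes that work with the SOX factors were counted next, each list beside the background of its comparison. After G-CSF, 17.8% of all features rose and 21.9% fell in GY118F EpiSCs, and 19.5% rose and 22.6% fell in control EpiSCs. Without G-CSF, 16.7% were higher and 16.5% lower in GY118F than in control EpiSCs. The OCT4 and SOX2 partners and targets, 14 measured of 17 listed, had 7 rises and 1 fall after G-CSF in GY118F EpiSCs and the same counts in control EpiSCs, with median log2 changes of 0.25 and 0.23. In GY118F EpiSCs the members with the largest changes were the Nodal antagonist Lefty1, which rose by 3.00 ± 0.72 (SE), and the Nodal co-receptor Tdgf1, which rose by 1.24 ± 0.25 (SE). Lefty1 ran from 7.93 to 11.34 in unstimulated GY118F EpiSCs, and Tdgf1 from 7.41, under 7.66 where dim probes lie, to 8.23. In control EpiSCs the largest changes were those of Lefty1 and the RNA-binding protein Trim71. Lefty1 was at -0.97 ± 0.64 (SE) with no call (limma adjusted p = 0.256), and Trim71 rose by 0.68 ± 0.09 (SE). Without unstimulated GY118F replicate 3, which widens the spread of the whole fit for Lefty1, the change in control EpiSCs was called at the same -0.97 (limma adjusted p = 1.621e-06). In unstimulated GY118F against unstimulated control EpiSCs, where Sox2 was higher, 0 of these 14 were higher and 7 lower, led by Lefty1 (-4.08) and the anterior homeobox factor Otx2 (-2.09).

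Neural progenitor genes that act with SOX2 and its closest relatives, 10 measured of 26, had 1 rise and 4 falls in GY118F and 3 rises and 1 fall in control EpiSCs. Irx3 (-0.69) and the intermediate filament gene Nes (0.44) moved most in GY118F EpiSCs, and the homeobox factor Meis2 (0.76) and the Notch target Hes1 (-0.66) in control EpiSCs. The lines without G-CSF differed with 5 higher and 1 lower in GY118F EpiSCs, led by Irx3 (1.67) and Meis2 (1.38). Their median difference was 0.21, where all features had 0.00. Of the 5 higher genes, Irx3, Zic1, Dll1 and Hes5 had means under 7.66 in unstimulated control EpiSCs, where dim probes lie. Hes5 and Dll1, which also counted among the falls in GY118F EpiSCs, had means under 7.66 there with and without G-CSF.

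Neural crest genes that act with SOX9 and its relatives, 6 measured of 15, had 3 rises and 1 fall after G-CSF in GY118F EpiSCs and 2 rises and 0 falls in control EpiSCs. The neurotrophin receptor Ngfr rose by 1.71 ± 0.08 (SE) in GY118F EpiSCs, and the homeobox factor Msx1 by 0.51. In control EpiSCs Twist1, a factor of mesenchymal cells, rose by 0.44 and Msx1 by 0.23. Without G-CSF, Tfap2b (0.76) and the endothelin receptor Ednrb (0.43) differed most, both higher in GY118F EpiSCs, among 2 higher and 2 lower. The lower genes were Ets1 (-0.27) and Ngfr (-0.27). On unstimulated control arrays Tfap2b, Ednrb, Msx1 and Twist1 all stayed under 7.66, where dim probes lie. Msx1, Tfap2b and Ednrb stayed under 7.66 on stimulated control arrays too. Msx1 and Twist1 were also under 7.66 on every unstimulated GY118F array, from which their rises in that line are counted.

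Cartilage targets of SOX9, 5 measured of 16, had 2 rises and 0 falls in GY118F and 1 rise and 0 falls in control EpiSCs. The cartilage collagen Col2a1 rose by 0.66 ± 0.17 (SE) in GY118F EpiSCs (limma adjusted p = 0.008683), where Sox9 itself fell, and this was 0.57 and not called without stimulated GY118F replicate 2 (limma adjusted p = 0.07412). The ubiquitin ligase gene Wwp2, which hosts a microRNA that SOX9 induces, rose by 0.26 in GY118F EpiSCs. In control EpiSCs Col2a1 was at 0.25 ± 0.16 (SE) with no call (limma adjusted p = 0.2291), but was called at the same value without unstimulated GY118F replicate 3 (limma adjusted p = 0.006976). There Wwp2 rose by 0.17 (limma adjusted p = 0.01029), and without stimulated control replicate 2 it was at 0.13 with no call (limma adjusted p = 0.05362). Without G-CSF, Col2a1 was higher by 0.85 in GY118F EpiSCs and Col9a3, another cartilage collagen, had a difference of -0.55 with no call (limma adjusted p = 0.06159), among 1 higher and 2 lower. The unstimulated control arrays of Col2a1 were all under 7.66, where dim probes lie. The lower genes, Matn4 (-0.25) and Comp (-0.22), were under 7.66 on every array. The Col9a3 difference was called without unstimulated GY118F replicate 3 (-0.72, limma adjusted p = 0.02509) and, at the same -0.55, without stimulated control replicate 1 (0.0197) or 3 (0.03721).

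Genes that regulate Sox9 or signal with it, 12 measured of 19, had 4 rises and 4 falls in GY118F and 5 rises and 2 falls in control EpiSCs. The WNT-responsive factor Sp5 rose by 2.19 ± 0.12 (SE) in GY118F and by 1.87 ± 0.11 (SE) in control EpiSCs. The Hedgehog receptor Ptch1 fell by 0.45 in GY118F EpiSCs, and the ligand Wnt8a fell by 0.40 ± 0.07 (SE) in GY118F EpiSCs and rose by 1.86 ± 0.06 (SE) in control EpiSCs. Both stimulated GY118F arrays of Ptch1 were under 7.66, where dim probes lie. Without G-CSF, the receptor Fgfr2 (1.70) and Wnt8a (1.45) were the most different, both higher in GY118F EpiSCs, among 5 higher and 1 lower. STAT3 targets, 12 measured of 15, had 9 rises and 1 fall in GY118F EpiSCs, with a median of 1.17, and 4 rises and 4 falls in control EpiSCs, with a median of -0.05. Of the SOX genes, Sox13 had the largest rise in GY118F EpiSCs, at 0.70, which lies under that median.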

How the data were processed

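Total RNA of the 11 EpiSC cultures was labelled with biotin and hybridised to Illumina arrays, as the labels' protocols say. The log2-like values deposited were made by the authors with lumi, per the submitters' processing notes; its version, the genome build and whether a plain log2 or a variance-stabilizing transformation was used are not given in the sources used here. Sorted values differed between arrays by at most 0.00116, so they had been quantile-normalized, and the table had no detection p-values. Of 15718 probes 13711 had 1 symbol in the platform annotation, 5 several and 2002 none; gene numbers changed 0 symbols, and 13 had no match in RefSeq. The brightest probe of each of 9201 symbols and 2007 probes without a single symbol gave 11208 features.

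One limma 3.58.1 fit (lmFit, eBayes; R 4.3.3) held all 11 arrays in their 4 groups, with no replicate block. Tests were two-sided, p-values were adjusted by Benjamini-Hochberg over all features with a threshold of 0.05, and intervals are 95%. The fit was tested on simulated data. The members, the 7 gene lists, the 8 marker lists and the tests were chosen with earlier results of these data known. List members are named by the size of their change. Stimulated GY118F arrays are numbered 2 and 3, from their source names; their titles give 1 and 2. Alternatives were a replicate block, other feature sets, normalization, a floor, moderation, array weights, a threshold of 0.01 and each array left out.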

Additional observations from a re-analysis of the deposited data

Results flagged for a closer look

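The change after 3 hours of G-CSF differed between GY118F and control EpiSCs, by limma's test of the difference, in the following genes among those named in the text; each value is the log2 change in GY118F minus that in control EpiSCs. Among the SOX genes these were Sox9, at -1.67 (limma adjusted p = 9.716e-06), and Sox11, at -0.44 (limma adjusted p = 0.01328), which was -0.39 and lost its call without stimulated GY118F replicate 3 (limma adjusted p = 0.06296).

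Rtl8a had -1.24 and Irx3 -1.31, but both were chosen from all features for a profile like that of Sox9 on these arrays, which fixes the direction, so these values are a description. Other negative differences were those of Wnt8a at -2.26, Fgfr2 at -1.12, the homeobox factor Meis2 at -0.98 and Tfap2b at -0.43, with limma adjusted p from 1.829e-08 to 0.006583.

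Positive differences were those of the STAT3 target Socs3 at 3.18, Ngfr at 1.72, the Notch target Hes1 at 0.78 and the HMG-box repressor Tcf7l1 at 0.40, with limma adjusted p from 1.955e-11 to 0.01264. Lefty1 had 3.97 (limma adjusted p = 0.02945), Otx2 0.39 (limma adjusted p = 0.03177) and Msx1 0.29 (limma adjusted p = 0.03648), and these lost their calls when any of 9, 7 and 10 single arrays was left out. Counted over whole lists, where all features had 3.85% positive and 2.14% negative calls, there were 2 positive and 1 negative of 14 OCT4 and SOX2 partners and targets, 1 and 3 of 10 neural progenitor genes, and 2 and 1 of 6 neural crest genes. There were 0 and 0 of 5 cartilage targets, 1 and 3 of 12 regulators and partners of Sox9, 1 and 0 of 15 other HMG-box genes and 10 and 0 of 12 STAT3 targets, not all of them named here. Without unstimulated GY118F replicate 3, uncalled differences became called for Col2a1 (0.67, limma adjusted p = 0.001216), Tdgf1 (1.29, 0.008689) and Ptch1 (-0.37, 0.004498). Those of Fgf5 (0.40, 0.01398) and Sp5 (0.47, 0.04251) became called too. Tfap2b and Msx1 were under 7.66 on every control array.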

How the results depend on the processing

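For the 9 SOX genes in 5 comparisons, 877 of 911 alternative values kept their side of the threshold, 9 lost a call, 25 gained one and 0 changed sign while called. Uncalled values near 0 did change sign, such as the Sox13 difference, from -0.24 to 0.18 without single arrays. The cause of these changes was not tested except where named. The difference of the G-CSF changes in Sox2, -0.39 with no call, was called after a second quantile normalization (-0.39, limma adjusted p = 0.04966), with trend and robust moderation (-0.39, 0.04193) and with array weights (-0.36, 0.04579), and ran from -0.46 to -0.30 without single arrays. Array weights also called Sox21 after G-CSF in control EpiSCs (-0.17, 0.03442) and Sox12 in GY118F EpiSCs (-0.26, 0.04722), and trend and robust moderation called Sox12 there (-0.22, 0.04656), Sox17 (-0.17, 0.03752) and Sox5 (0.13, 0.04575) in GY118F against control EpiSCs without G-CSF. Sox12 in GY118F EpiSCs was also called among the brighter 50% of features (-0.22, 0.04981). Sox4 after G-CSF in GY118F EpiSCs lost its call when only its own groups were fitted (0.21, 0.05086) and, with the Sox11 difference (-0.44, 0.01328), at a threshold of 0.01. Other values without single arrays ran from -0.50 to -0.38 for the Sox11 difference, -0.21 to -0.08 for Sox11 and 0.16 to 0.26 for Sox4 in GY118F EpiSCs, and 0.049 to 0.21 for Sox2, 0.12 to 0.23 for Sox4 and 0.21 to 0.63 for Sox13 in stimulated GY118F against stimulated control EpiSCs.

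Deviations of same-numbered stimulated and unstimulated arrays from their group means correlated at 0.262, 0.246 and -0.293 in control EpiSCs. In GY118F EpiSCs they correlated at -0.039 and 0.297, or at 0.382 and 0.039 with the titles' numbers. Deviations within groups this small are tied to one another, so these values cannot decide whether replicate numbers pair the samples. With the replicate number as a block, the difference was called for Sox2 (-0.34, limma adjusted p = 0.03929; -0.42, 0.0121 with the titles' numbers) and Sox21 (-0.27, 0.04313; -0.36, 0.005523), as were Sox21 after G-CSF in control EpiSCs (-0.14, 0.02704; 0.01854) and, with the titles' numbers, Sox12 in GY118F EpiSCs (-0.23, 0.04991); the block changed no other SOX call.

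Calls over all features numbered 4456 after G-CSF in GY118F and 4723 in control EpiSCs, 672 for their difference, 3723 for GY118F against control EpiSCs without and 3352 with G-CSF. Without the dimmer 50% of features, which leaves fewer to test, they were 2752, 2954, 361, 2214 and 2081 in that order. At a threshold of 0.01 the difference had 320 and the lines with G-CSF 2156, and without single arrays the difference had 442 to 848. Signal over background limits Sox5, Sox17 and the dimmer probes, for which no detection p-values were used, and 2 stimulated GY118F arrays limit every comparison with that group.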

Other observations

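Other genes of the HMG-box superfamily, to which the SOX factors belong, were counted in the same comparisons, 15 measured of 22 listed. After G-CSF, 6 rose and 1 fell in GY118F EpiSCs, against 17.8% and 21.9% of all features, and 4 rose and 1 fell in control EpiSCs, against 19.5% and 22.6%. The repressor Hbp1 was at 9.79 ± 0.02 (SD, n = 2) with and 10.48 ± 0.09 (SD, n = 3) without G-CSF in GY118F EpiSCs, and at 9.88 ± 0.12 and 10.69 ± 0.11 (SD, n = 3 each) in control EpiSCs. It fell in both lines, by 0.69 in GY118F (limma adjusted p = 2.613e-05) and by 0.81 in control EpiSCs (limma adjusted p = 2.664e-06). Tcf7l1, the T-cell factor that represses WNT targets in pluripotent cells, rose by 0.68 in GY118F and by 0.28 in control EpiSCs, and Ubtf, the upstream binding factor of ribosomal RNA transcription, by 0.67 in GY118F and by 0.47 in control EpiSCs. The difference between the lines was called for Tcf7l1 (0.40, limma adjusted p = 0.01264) and not for Ubtf (0.20, limma adjusted p = 0.249). Without G-CSF, 3 were higher and 1 lower in GY118F than in control EpiSCs, against 16.7% and 16.5% of all features, led by the chromatin remodelling subunit Smarce1, higher by 0.62, and Tcf7l1, higher by 0.26.

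Among EpiSC markers, 0 of 7 were higher and 5 lower in GY118F than in control EpiSCs without G-CSF, against 16.7% and 16.5% of all features. Fgf5 was at 8.84 ± 0.30 and 10.25 ± 0.10 in these groups and Pou5f1, which encodes OCT4, at 11.79 ± 0.05 and 12.53 ± 0.10 (SD, n = 3 each).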
